A study of Homo sapiens with 10 samples.

Results

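A stretch of the long arm of chromosome 7 carries 331 genes of the count table between hg19 positions 75956108 and 116870075, a width of 40.9 Mb, and 316 of them are described here. A gene belonged to the stretch when all of its exons were annotated to chromosome 7 and its smallest start fell between those positions. ABCB1, ABCB4, SHFM1, MET, NAMPT, CYP51A1, ASNS, MCM7 and the genes whose symbols start with COL, FZD, CLDN or LAMB (15 in all) were set aside. The window was selected on measured values, namely the lower levels of these genes in the 2 libraries of the clone ABTr4 against the other clones and against parental cells. Differences of ABTr4 from the other groups are therefore a description: where calls of a fit are given for them, they stand beside the share of all genes called and nothing is read from them. Comparisons that leave ABTr4 out are tested. Of the 316 genes, 227 passed the filter on low counts (out of 16490 that passed among 25370 in the table), 62 had reads but did not pass, and 27 had 0 reads in all libraries.

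PEO1 is an established cell line from a high grade serous ovarian carcinoma that lacks working BRCA2, although the labels give the parental cells the genotype WT. Each of ABTr1, ABTr2, ABTr3 and ABTr4 was a single PEO1 clone, labelled veliparib resistant, that had lived with 40 µM of the PARP inhibitor veliparib for 6 months and had then been without it for 4 to 5 days when RNA was taken. Parental PEO1 and each clone have 2 libraries of polyadenylated RNA, replicate 1 and replicate 2, so the clones share the drug exposure and the parental line, and a difference between clones is a difference between single lines. The sample descriptions number the clones differently from the sample titles (the libraries titled ABTr4 are described as clone 3), and the titles are used throughout. The labels do not say how the 2 cultures of a group were separated, so every p-value speaks of the variation among these libraries alone.

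Segments of the long arm of chromosome 7 are lost in many myeloid leukemias and gained or lost in carcinomas. As general background, the RNA of genes in a lost or gained segment tends to follow the number of copies, though not for every gene. The window holds genes of very different jobs: the replication kinase regulator DBF4 and the cell cycle kinase CDK6, a cluster of zinc finger transcription factors, subunits of the ARP2/3 actin complex and of the proteasome, the caveolins, the semaphorins, an imprinted cluster around PEG10 and SGCE, and the paired antiviral genes SAMD9 and SAMD9L. DNA copy number was not analysed here, and in bulk RNA fewer cells carrying a transcript and less of it per cell cannot be told apart.

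The sequences just upstream of 4 members are shown because they differ widely in base composition while all 4 genes stood lower in ABTr4. They were chosen after the values were seen, and are the 250 bases before the start of each gene, 5′ to 3′ on the gene's own strand, from RefSeq on GRCh38.p14 (chr7:92245724-92245973 plus strand, chr7:100827524-100827773 minus strand, chr7:93117980-93118229 minus strand and chr7:93148386-93148635 minus strand). Capitals mark the letter runs GGGCGG (the GC box), CCAAT (the CCAAT box), TATAAA (the TATA box) and CGGAAG (a core of ETS factor sites) on either strand, each counted where it shares letters with another.
ANKIB1: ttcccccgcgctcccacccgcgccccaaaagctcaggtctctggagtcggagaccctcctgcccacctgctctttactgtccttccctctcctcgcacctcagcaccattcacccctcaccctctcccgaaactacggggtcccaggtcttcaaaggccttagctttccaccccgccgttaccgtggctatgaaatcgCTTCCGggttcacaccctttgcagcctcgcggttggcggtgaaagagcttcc
EPHB4: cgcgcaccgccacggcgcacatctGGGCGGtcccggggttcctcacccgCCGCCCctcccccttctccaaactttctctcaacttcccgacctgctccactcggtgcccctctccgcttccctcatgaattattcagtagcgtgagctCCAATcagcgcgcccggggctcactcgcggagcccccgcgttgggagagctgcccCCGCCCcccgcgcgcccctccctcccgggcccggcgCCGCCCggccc
SAMD9: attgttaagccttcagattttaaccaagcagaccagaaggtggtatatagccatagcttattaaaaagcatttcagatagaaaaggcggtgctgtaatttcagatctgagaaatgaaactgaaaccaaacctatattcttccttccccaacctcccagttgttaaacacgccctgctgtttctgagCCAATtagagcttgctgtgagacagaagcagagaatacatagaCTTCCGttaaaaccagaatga
SAMD9L: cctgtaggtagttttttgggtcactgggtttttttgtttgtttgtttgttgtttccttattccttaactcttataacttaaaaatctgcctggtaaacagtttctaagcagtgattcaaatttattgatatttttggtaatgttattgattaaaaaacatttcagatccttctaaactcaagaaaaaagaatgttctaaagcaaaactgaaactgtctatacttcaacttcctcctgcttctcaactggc

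The EPHB4 sequence held 29 CpG pairs and 4 GGGCGG runs, the ANKIB1 sequence 16 CpG pairs, the SAMD9 sequence 3, and the SAMD9L sequence 0. A promoter was found for 228 of the 316 members, 211 by symbol and 17 by an older symbol. Some members share a promoter, which is counted for each of them. LINC01004 and LHFPL3-AS2 take that of KMT2E-AS1, the first passing the filter on low counts and the second not, and PILRB takes that of STAG3L5P-PVRIG2P-PILRB. Among these 228, GGGCGG occurred in 56.6% (42.6% of all 35116 RefSeq promoters of this length, expressed or not), CGGAAG in 26.3% (16.5%), CCAAT in 32.9% (32.0%) and TATAAA in 9.21% (10.7%). The 181 that passed the filter on low counts and the 47 that did not are given in turn: GGGCGG was in 65.7% and 21.3% of them, CGGAAG in 29.8% and 12.8%, CCAAT in 31.5% and 38.3%, and TATAAA in 6.63% and 19.1%. The 137 tested members with an observed to expected CpG ratio of at least 0.6 had a median log2 difference of ABTr4 from the other clones of -0.69, and the 44 members below that ratio had one of -0.81. Members of both classes were lower, 131 of the 137 and 43 of the 44 (93.8% of all tested members, background 48.8%). The window was drawn on this contrast, so nothing is read from these counts. These matches describe letters and are not binding sites.

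Total counts per library ran from 20640602 to 55488566, and no library repeated another. Libraries of the same number deviated together across groups, so values with the replicate number as a block stand beside results that it moves. The labelled epithelial identity was checked with EPCAM, CDH1, KRT7, KRT8, KRT18, KRT19 and CLDN4, whose summed level was 9386 to 14500 CPM (counts scaled to a library size normalised with TMM factors) in parental cells and 2697 to 3534 CPM in the clones. The part of this gap in the comparisons with parental cells was not tested. The ABTr4 libraries, at 3055 and 3077 CPM, lay inside the range of the other clones. Of these 7 markers only 4 were below 0 in ABTr4 against the other clones, and the log2 differences ran from -3.77 to 0.30. EPCAM and CDH1 were below all 8 other libraries in ABTr4 (background 3.59% of all tested genes). EPCAM was at 69.4 and 70.9 CPM against 123.1 ± 30.6 CPM (SD, n = 3 clones) in the others, and CDH1 at 0.0430 and 0.216 against 2.47 ± 2.66 CPM. The 4 ovarian and tubal lineage markers (PAX8, WT1, MUC16 and EMX2, the last at 0 everywhere) summed to 97.5 and 98.4 CPM in ABTr4, below all other libraries (118 to 201 CPM). They did not all go the same way. Of the 3 tested, 2 were below 0 against the other clones. Their log2 differences ran from -4.14 to 1.56, with PAX8 at -0.64. The part of these marker differences in the levels of the members was not tested. Summed markers of fibroblasts (at most 0.31 CPM, 3 of 4 at 0 everywhere) and leukocytes (at most 1.70 CPM, 0 of 4 at 0) were low in every library. The 4 endothelial markers summed to 3.14 and 3.25 CPM in ABTr4 against 2.01 to 16.3 CPM in the other clones and 15.5 and 62.3 CPM in parental cells.

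Genes of the window stood lower as a body in both ABTr4 libraries. The 316 members together took 0.485% and 0.470% of the counts in ABTr4, against 0.776% to 0.815% in ABTr1, ABTr2 and ABTr3 and 0.847% and 0.940% in parental cells. Their summed level was 4829 and 4418 CPM in ABTr4, 7428 to 8129 CPM in the 6 libraries of the other clones, and 9369 and 11046 CPM in parental cells. Neither ABTr4 library overlapped any other library in this sum. Relative to the mean of the 6 libraries of the other clones, the median member lay at -0.69 on the log2 scale in both ABTr4 libraries, between -0.07 and 0.04 in each library of the other clones, and at 0.16 and 0.28 in the parental libraries. The plot of medians per library shows the members beside the tested genes outside the window.

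**Figure D1:**
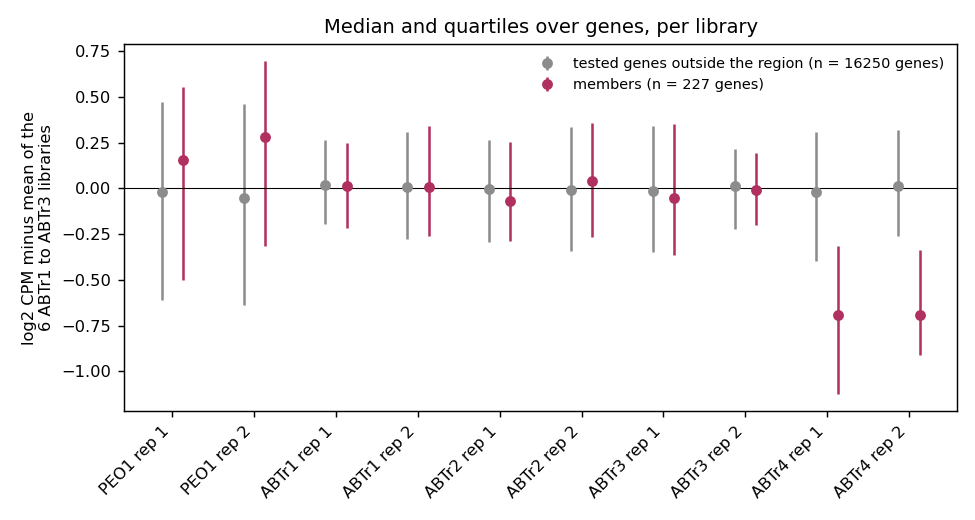
Median (point) and quartiles (bar) over genes of the log2 CPM of each library minus the mean log2 CPM of the 6 ABTr1, ABTr2 and ABTr3 libraries, for the 227 tested members and for tested genes outside the window. The members' medians are at -0.69 in both ABTr4 libraries and between -0.07 and 0.28 in the other 8, while the genes outside stay near 0 in each.

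Against the mean of the other clones, the median log2 difference of the 227 tested members in ABTr4 was -0.69, which is 62.1% of their level, with quartiles of -0.996 and -0.403. The median over all 16490 tested genes was 0.01. Of the 227, 213 (93.8%) had a difference below 0, against a background of 48.8% of all tested genes. Both ABTr4 libraries lay below all 6 libraries of the other clones for 105 members (46.3%, background 5.26%), below all 8 other libraries for 89 (39.2%, background 3.59%), and above all 6 for 0 members (background 2.95%). Within replicate numbers, each ABTr4 library was below the 3 other clone libraries of its own number for 143 members (63.0%, background 11.1%). Since the window was drawn on this contrast, nothing is read from these shares. The same medians were -0.71 over the 141 members with a mean of at least 5 CPM and -0.72 over the 153 members whose exons overlap no other gene.

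Calls for single genes in this contrast are given beside their background, and nothing is read from them. The edgeR quasi-likelihood fit called 0 members and 0 of 16490 genes (0%) lower at an adjusted p under 0.05, 98 members were lower at an unadjusted p under 0.05 (background 3.68%), and limma-voom also called 0. With the replicate number as a block the same fit called 26 members (background 0.509%), and DESeq2 called 28 (background 0.867%). On counts drawn with known changes, the fit without the block recovered 0%, 24%, 86% and 98% of genes changed 1.5-, 2-, 4- and 8-fold in this comparison. The drawn counts held no deviation shared by libraries of the same number. On the real counts this fit called 0 genes although log2 differences ran from -8.52 to 4.05, so these rates do not carry over to them.

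Against parental PEO1, the median log2 difference of the members in ABTr4 was -0.84 (quartiles -1.30 and -0.25), 55.9% of the parental level, beside 0.04 over all tested genes. Of the 227, 182 lay below 0 (background 47.8%). The fit passed 54 as lower (background 5.25%) and 1 as higher (background 4.46%, PIK3CG), and 111 as lower with the block (background 13.9%). This comparison also served to draw the window, so nothing is read from these shares or calls. Leaving out 1 library of this contrast moved the 54 to 17 without PEO1 replicate 2 (background 2.06%), to 10 without ABTr4 replicate 1 (background 1.21%) and to 9 without ABTr4 replicate 2 (background 1.51%), while the median ran only from -0.88 to -0.75 with 1 library left out. Taking each clone library minus the parental library of its own number, the median member was on the log2 scale at -0.82 and -0.90 in ABTr4, -0.12 and -0.31 in ABTr1, -0.17 and -0.19 in ABTr2, and -0.18 and -0.19 in ABTr3. The comparisons of ABTr4 and of the other clones with parental cells share the same 2 parental libraries.

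**Figure D2:**
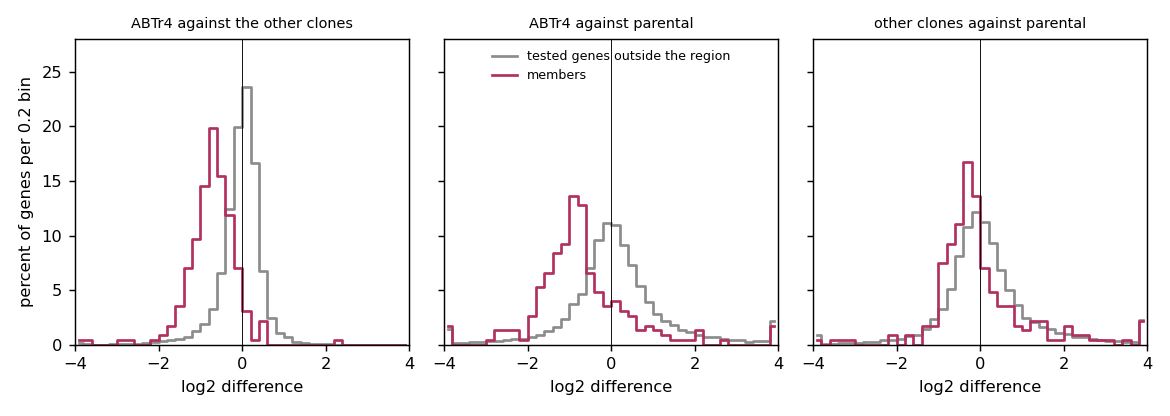
Percent of genes per bin of 0.2 log2 units for the 227 tested members and for tested genes outside the window, for ABTr4 against the other clones (left), ABTr4 against parental PEO1 (middle) and the other clones against parental PEO1 (right). The members' medians are -0.69, -0.84 and -0.22 from left to right, and those of all tested genes are 0.01, 0.04 and 0.02.

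Along the chromosome the lower level held through the whole window. With the window cut into 4 stretches of 10.2 Mb, the medians of ABTr4 against the other clones were -0.69 (27 tested members), -0.96 (48), -0.64 (121) and -0.68 (31). The stretch with the lowest median holds ANKIB1, AKAP9, KRIT1, SAMD9 and the imprinted cluster. On the same chromosome the median was -0.05 over 276 genes of the short arm, -0.22 over the 81 long-arm genes before the window, and 0.10 over the 217 after it. Those 217 were a mix. The first 20 had a median of -0.76, and later parts of 120, 62 and 15 genes had 0.05, 0.49 and -0.10, with boundaries chosen after the profile was seen. The lower level thus did not stop at the end of the window. Against parental cells the short arm, the long arm before the window and the long arm after it lay at 0.04, -0.52 and 0.05 in ABTr4. In the other clones together they lay at 0.09, -0.30 and -0.16, so the long arm before the window was below parental cells there too. On the other 21 autosomes the median ran from -0.20 (chromosome 3) to 0.10 against the other clones. Against parental cells those autosomes ran from -0.38 (chromosome 18) to 0.42, and the members lay at -0.84.

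The ends were described from the nearest tested genes, with no test. Just inside the start, YWHAG was at -0.30, SRCRB4D at -0.39 and ZP3 at -0.96 (ABTr4 against the other clones), and just outside it STYXL1 was at -0.09, MDH2 at -0.17 and HSPB1 at -0.71. In the last 5 Mb before the window, 46 of 49 tested genes were below 0 against the other clones, with a median of -0.23. Just inside the end, CAPZA2 was at -0.59, ST7-AS1 at -0.55 and ST7 at -0.61, and just outside it CTTNBP2 was at -1.45, LSM8 at -0.63 and ANKRD7 at -0.79. The values on both sides of the start and of the end were below 0, so neither is a clean edge of the lower levels. Single libraries moved many of these values: without ABTr4 replicate 1 and without replicate 2 in turn, ST7-AS1 was at 0.09 and -1.62, ST7 at -1.24 and -0.17, CAPZA2 at -0.39 and -0.81, and CTTNBP2 at -0.88 and -2.299. At the start the same pairs were -0.62 and -0.04 for YWHAG, -0.20 and -0.59 for SRCRB4D, -0.57 and -1.48 for ZP3, -0.01 and -0.17 for STYXL1, -0.27 and -0.08 for MDH2, and -0.15 and -1.65 for HSPB1. The exons of SRCRB4D and ZP3 overlap, as do those of ST7 and its antisense gene, and the kit did not keep strand, so their values are uncertain.

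**Figure D3:**
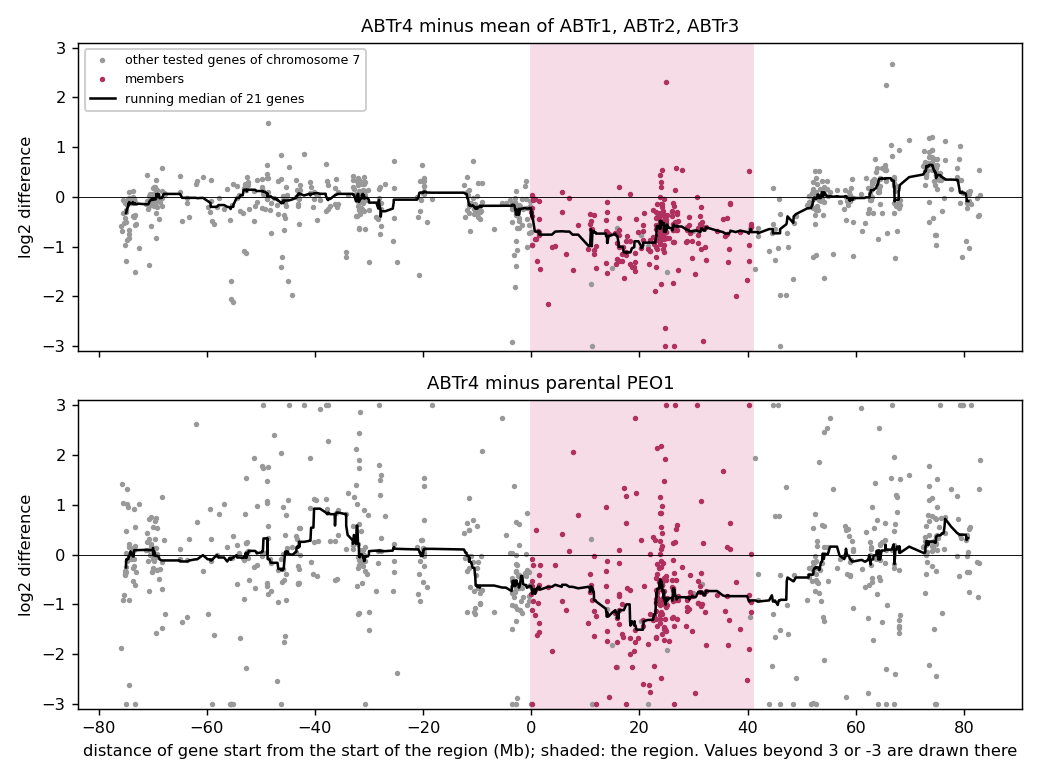
Log2 difference of each tested gene of chromosome 7 against the distance of its start from the start of the window in Mb, for ABTr4 minus the mean of the other clones (top) and ABTr4 minus parental PEO1 (bottom), with a running median of 21 genes; values beyond 3 or -3 are drawn at that limit. In both panels the running median stays below 0 through the shaded window (median of the members -0.69 and -0.84) and returns to 0 some distance after its end. It is more uneven in the bottom panel. Over the 49 tested genes in the last 5 Mb before the window the medians are -0.23 (top) and -0.61 (bottom). The other clones together are at -0.38 against parental PEO1 over the same 49 genes.

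Growth and replication genes of the window had differences below 0 against the other clones with 1 exception. Of the 11 tested members of the cell cycle and replication origin list, 10 were below 0 against the other clones (median -0.62) and 11 against parental cells. Both ABTr4 libraries lay below all 6 libraries of the other clones for only 3 of the 11 (46.3% of all members, background 5.26%). CDK6, a kinase that drives entry into the cell cycle with D cyclins, was at 164 and 84.5 CPM in parental cells, 112 and 77.9 in ABTr1, 143 and 42.0 in ABTr2, 138 and 63.8 in ABTr3, and 109 and 35.0 in ABTr4. Replicate 2 was lower than replicate 1 in every group, and ABTr4 was the lowest group at each number although the groups overlapped across numbers. The log2 difference of CDK6 from the other clones was -0.42 (SE 0.59). It was -1.46 without ABTr4 replicate 1 and 0.19 without ABTr4 replicate 2, so its direction is not settled. Its exons overlap LOC101927497. TRRAP, a scaffold of histone acetyltransferase complexes, stood at 186 and 137 CPM in parental cells, 123.1 and 122 in ABTr1, 114 and 64.2 in ABTr2, 184 and 91.3 in ABTr3, and 81.2 and 49.3 in ABTr4, again lowest in ABTr4 at each number with overlap across numbers, and its exons overlap LOC101927550. CCDC132 (VPS50), a subunit of an endosomal recycling complex placed on this list although its role lies elsewhere, had 42.9 and 64 CPM in parental cells, 32.4 and 34.0 in ABTr1, 30.0 and 35.9 in ABTr2, 32.9 and 39.0 in ABTr3, and 16.9 and 17.0 in ABTr4, and its ABTr4 libraries were below all 8 others. The exception was ORC5, a subunit of the origin recognition complex, at 14.1 and 9.79 CPM in parental cells, 5.40 and 4.21 in ABTr1, 12.3 and 9.76 in ABTr2, 6.13 and 6.53 in ABTr3, and 12.1 and 8.01 in ABTr4, where ABTr4 lay inside the range of the other clones (log2 difference 0.54, SE 0.27).

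All 16 tested transcription and chromatin genes and all 10 tested zinc finger genes were below 0 against the other clones (medians -0.69 and -0.73). CUX1 (hg19 chromosome 7, 101459184 to 101927250), a homeodomain transcription factor and a candidate tumor suppressor of this arm, was at 116 and 194 CPM in parental cells, 82.8 and 97.3 in ABTr1, 72.6 and 84.1 in ABTr2, 79.8 and 82.4 in ABTr3, and 48.4 and 44.7 in ABTr4. Its 2 ABTr4 libraries lay close together and below all others. KMT2E, a chromatin regulator with a SET domain, stood at 90.9 and 109 CPM in parental cells, 78.1 and 101 in ABTr1, 63.0 and 80.2 in ABTr2, 65.0 and 73.5 in ABTr3, and 44.6 and 51.1 in ABTr4, again below all 8. HBP1, a repressor of cell cycle genes, had 40.3 and 111 CPM in parental cells, 45.5 and 97.9 in ABTr1, 45.5 and 129 in ABTr2, 43.8 and 81.7 in ABTr3, and 17.9 and 58.8 in ABTr4. HBP1 differed between replicate numbers in every group, and ABTr4 was the lowest group at each number. Its exons overlap COG5. Among the zinc finger genes ZKSCAN1, at 78.7 and 108 CPM in parental cells, 155 and 185 in ABTr1, 85.7 and 122 in ABTr2, 83.5 and 111 in ABTr3, and 79.3 and 75 in ABTr4, was below all libraries of the other clones in ABTr4 and overlapped the lower parental library. ZNF655, a zinc finger protein gene, had 60.6 and 76.0 CPM in parental cells, 67.7 and 60.1 in ABTr1, 82.3 and 64.4 in ABTr2, 71.0 and 66.9 in ABTr3, and 42.4 and 37.6 in ABTr4, and ZNF3 had 24.5 and 20.6 CPM in ABTr4 against 39.6 ± 6.06 CPM (SD, n = 3 clones) in the others. Both were below all 8 other libraries, and the exons of ZNF3 overlap ZSCAN21.

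The 5 genes of this arm that are often studied in myeloid disease were all below 0 against the other clones (median -0.83), and 4 of 5 against parental cells. SAMD9 (hg19 chromosome 7, 92728826 to 92747336), an interferon-inducible antiviral protein that restrains growth, was at 72.6 and 103 CPM in parental cells, 61.4 and 76.5 in ABTr1, 86.1 and 67.9 in ABTr2, 67.2 and 68.0 in ABTr3, and 26.3 and 32.0 in ABTr4. Both ABTr4 libraries lay well below the lowest of the other 8. Its neighbour and paralog SAMD9L stood at 13.6 and 34.6 CPM in parental cells, 33.5 and 38.3 in ABTr1, 18.0 and 33.2 in ABTr2, 13 and 28.1 in ABTr3, and 8.20 and 15.9 in ABTr4, where replicate 2 of ABTr4 overlapped replicate 1 of ABTr3 and of parental cells. DOCK4, an exchange factor for small GTPases, stood apart: it had 31.0 and 14.4 CPM in parental cells, 82.9 and 50.3 in ABTr1, 112 and 36.6 in ABTr2, 212 and 173 in ABTr3, and 118 and 26.7 in ABTr4, with all clone libraries but ABTr4 replicate 2 above both parental ones, and a log2 difference of ABTr4 from the other clones of -0.45 (SE 0.61). The other interferon-inducible member, TRIM56, a ubiquitin ligase of antiviral signaling, was at 33.7 and 54.9 CPM in parental cells, 24.5 and 27.1 in ABTr1, 25.8 and 18.1 in ABTr2, 27.9 and 19.2 in ABTr3, and 22.4 and 13.7 in ABTr4, with overlap between ABTr4 and the other clones.

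RNA processing and protein turnover genes lay on both sides of 0, with most below it. In the RNA processing and translation list 14 of 15 were below 0 (median -0.41). SRRT, a nuclear cap-binding cofactor, had 205 and 97.5 CPM in parental cells, 109 and 78.6 in ABTr1, 166 and 71.7 in ABTr2, 168 and 92.2 in ABTr3, and 145 and 73.2 in ABTr4, with ABTr4 inside the range of the others (log2 difference -0.05, SE 0.44). IFRD1, a transcription coregulator, stood at 91.5 and 50.3 CPM in ABTr4 against 97.5 ± 24.0 CPM (SD, n = 3 clones) in the others and overlapped them. SRPK2, a kinase of splicing factors, was at 89.3 and 81.7 CPM in parental cells, 74.5 and 68.2 in ABTr1, 75.2 and 81.5 in ABTr2, 62.1 and 71.5 in ABTr3, and 44.0 and 33.5 in ABTr4, below all 8. In the ubiquitin, proteasome and folding list 11 of 13 were below 0 (median -0.80). ANKIB1 (hg19 chromosome 7, 91875548 to 92030698), a RING-between-RING ubiquitin ligase gene whose upstream sequence is printed above, had 142 and 195 CPM in parental cells, 159 and 153 in ABTr1, 88.5 and 114 in ABTr2, 94.4 and 114 in ABTr3, and 39.8 and 59.1 in ABTr4. Its ABTr4 libraries were below all 8 others. PSMC2, an ATPase of the proteasome base, was at 144 and 136 CPM in parental cells, 91.7 and 80.9 in ABTr1, 132 and 136 in ABTr2, 105 and 121 in ABTr3, and 88.7 and 68.7 in ABTr4, and ABTr1 overlapped ABTr4 there. COPS6, a COP9 signalosome subunit, stood at 166 and 87.8 CPM in parental cells, 105 and 91.6 in ABTr1, 148 and 94.5 in ABTr2, 130.2 and 133 in ABTr3, and 111 and 68.0 in ABTr4, with overlap between ABTr4 and the rest.

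All 14 tested mitochondrial genes were lower, with a median of -0.67 against the other clones and -1.01 against parental cells. Of the 14, 12 lay below all 6 libraries of the other clones in ABTr4 (46.3% of all members, background 5.26%). The same count was 10 of 16 for transcription and chromatin, 8 of 10 for zinc finger genes, 7 of 15 for RNA processing and 4 of 13 for ubiquitin and folding. It was 5 of 14 for secreted proteins, 7 of 18 for receptors, 12 of 21 for signaling and 3 of 11 for cell cycle and replication origin. DLD, the shared dehydrogenase subunit of the pyruvate and oxoglutarate complexes, was at 199 and 155 CPM in parental cells, 125 and 104 in ABTr1, 147 and 144 in ABTr2, 112 and 124 in ABTr3, and 102 and 75 in ABTr4. PMPCB, a subunit of the peptidase that trims imported proteins, had 96.7 and 127 CPM in parental cells, 60.4 and 61.8 in ABTr1, 77.8 and 83.8 in ABTr2, 72.0 and 75 in ABTr3, and 49.2 and 41.3 in ABTr4, and ARMC10, an armadillo repeat protein of the outer membrane, had 39.3 and 48.3 CPM in ABTr4 against 66.1 ± 8.80 CPM (SD, n = 3 clones) in the others. All of these lay below the 8 other libraries, by a small margin for DLD and ARMC10. The exons of PMPCB overlap DNAJC2 and those of ARMC10 overlap NAPEPLD. PDK4, a kinase that shuts the pyruvate dehydrogenase complex, was at 6.42 and 11.1 CPM in parental cells, 6.28 and 19.6 in ABTr1, 5.02 and 10.5 in ABTr2, 6.05 and 6.50 in ABTr3, and 1.36 and 4.80 in ABTr4, with log2 differences of -1.48 (SE 0.63) from the other clones and -1.51 (SE 0.72) from parental cells.

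All 19 tested trafficking and cytoskeleton genes were below 0 against the other clones (median -0.87), and 17 were below 0 against parental cells. Of the 19, 15 did not overlap the other clones (46.3% of all members, background 5.26%). ARPC1A and ARPC1B, alternative WD-repeat subunits of the ARP2/3 complex that branches actin filaments, were both in the window. ARPC1B (hg19 chromosome 7, 98972298 to 98992404) was at 266 and 619.8 CPM in parental cells, 274 and 346 in ABTr1, 273 and 397 in ABTr2, 265 and 360.1 in ABTr3, and 128 and 148 in ABTr4, and ARPC1A at 175 and 219 CPM in parental cells, 182 and 168 in ABTr1, 112 and 165 in ABTr2, 129 and 215 in ABTr3, and 68.4 and 91.1 in ABTr4. Every ABTr4 value of both genes was below every other library, and the exons of ARPC1B overlap PDAP1. CAV1, the main coat protein of caveolae, had 346 and 195 CPM in parental cells, 302 and 277 in ABTr1, 253 and 428 in ABTr2, 205 and 335 in ABTr3, and 102 and 205 in ABTr4. ABTr4 replicate 2 was almost level with the lowest library of the other clones and lay above parental replicate 2. CAV2, its partner in the coat, stood at 81.0 and 88.6 CPM in parental cells, 55.1 and 47.2 in ABTr1, 50.4 and 75.3 in ABTr2, 42.3 and 62.5 in ABTr3, and 15.5 and 30.0 in ABTr4, below all 8. TES (hg19 chromosome 7, 115850547 to 115898837), a LIM protein of focal adhesions, was at 139 and 206 CPM in parental cells, 93.6 and 75.8 in ABTr1, 113 and 75.1 in ABTr2, 107 and 109 in ABTr3, and 35.4 and 24.3 in ABTr4, with both ABTr4 libraries well below all others. SYPL1, a vesicle membrane protein, had 95.8 and 94.3 CPM in ABTr4 against 178 ± 27.3 CPM (SD, n = 3 clones) in the others.

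Secreted, surface and signaling genes varied more, and here the parental level set the 2 comparisons apart. Of 14 tested secreted and matrix genes, 13 were below 0 against the other clones (median -0.89) but 7 against parental cells (median -0.07). SEMA3C, a secreted guidance protein, stood at 111 and 112 CPM in parental cells, 144 and 200.2 in ABTr1, 159.9 and 215 in ABTr2, 166 and 259.7 in ABTr3, and 87.3 and 105 in ABTr4: below all other libraries in ABTr4, and above parental cells in the other clones. SEMA3A, of the same family, had 4.39 and 2.71 CPM in parental cells, 44.3 and 80.0 in ABTr1, 15.3 and 49.8 in ABTr2, 29.7 and 39.3 in ABTr3, and 7.83 and 22 in ABTr4, so that both ABTr4 libraries were above parental cells and overlapped the other clones. PLOD3, a collagen lysyl hydroxylase, was at 36.8 and 19.2 CPM in ABTr4 against 50.1 ± 6.70 CPM (SD, n = 3 clones) in the others, with exons that overlap ZNHIT1.

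Of 18 tested receptors and surface proteins, 17 were below 0 against the other clones (median -0.96) and 12 against parental cells. EPHB4 (hg19 chromosome 7, 100400187 to 100425143), a receptor tyrosine kinase for ephrin B ligands, was at 148 and 173 CPM in parental cells, 91.6 and 111 in ABTr1, 85.8 and 85.6 in ABTr2, 73.6 and 82.5 in ABTr3, and 49.2 and 48.1 in ABTr4. The 3 levels of parental cells, other clones and ABTr4 did not overlap. ORAI2, a subunit of store-operated calcium channels, had 52.7 and 50.6 CPM in parental cells, 65.4 and 54.3 in ABTr1, 46.5 and 41.1 in ABTr2, 49.4 and 47.6 in ABTr3, and 36.3 and 26.9 in ABTr4, and stood below all 8, with exons that overlap ALKBH4. All 21 signaling members were below 0 (median -0.78), and 17 were so against parental cells. YWHAG, a 14-3-3 adaptor protein at the very start of the window, was at 608 and 464 CPM in parental cells, 403 and 296 in ABTr1, 483 and 335 in ABTr2, 479 and 301 in ABTr3, and 371 and 249 in ABTr4. It overlapped across numbers and was lowest in ABTr4 within each number. PTPN12, a tyrosine phosphatase of the cytoskeleton, had 314 and 308 CPM in parental cells, 287 and 266 in ABTr1, 298 and 202 in ABTr2, 252 and 219 in ABTr3, and 176 and 139 in ABTr4, and GNB2, a G protein beta subunit, had 129 and 117 CPM in ABTr4 against 210.5 ± 10.9 CPM (SD, n = 3 clones). Both genes were below all 8 other libraries in ABTr4.

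Genes of the imprinted cluster did not all stand alike. Of its 9 tested genes, 8 were below 0 against the other clones (median -1.16). SGCE, the sarcoglycan epsilon gene, and PEG10, a gene derived from a retrotransposon, lie head to head and are expressed from the paternal copy in normal tissue. SGCE was at 22.1 and 43.6 CPM in parental cells, 55.7 and 71.9 in ABTr1, 31.2 and 75.5 in ABTr2, 29.8 and 50.1 in ABTr3, and 13.9 and 26.3 in ABTr4, lowest in ABTr4 among the clones but not against parental replicate 1. PEG10 stood at 223 and 402 CPM in parental cells, 109 and 79.3 in ABTr1, 83.1 and 49.1 in ABTr2, 89.3 and 43.1 in ABTr3, and 85.1 and 70.3 in ABTr4, where ABTr4 lay within the other clones (log2 difference 0.06, SE 0.35) and all clones lay below parental cells. TFPI2, an inhibitor of serine proteases in the matrix, had 96.8 and 794 CPM in parental cells, 21.7 and 21.2 in ABTr1, 69.3 and 111 in ABTr2, 43.4 and 28.7 in ABTr3, and 20.5 and 16.4 in ABTr4. The 2 parental libraries of TFPI2 differed by more than the 2 libraries of any clone, and ABTr4 was below all 8 by a small margin. CASD1, a sialic acid acetyltransferase gene, was at 11.4 and 11.9 CPM in ABTr4 against 21.7 ± 1.97 CPM (SD, n = 3 clones). Of the 4 CYP3A genes, drug-metabolising enzymes of the liver, only CYP3A5 passed the filter, and its log2 difference was -0.13 (SE 0.57).

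**Figure D4:**
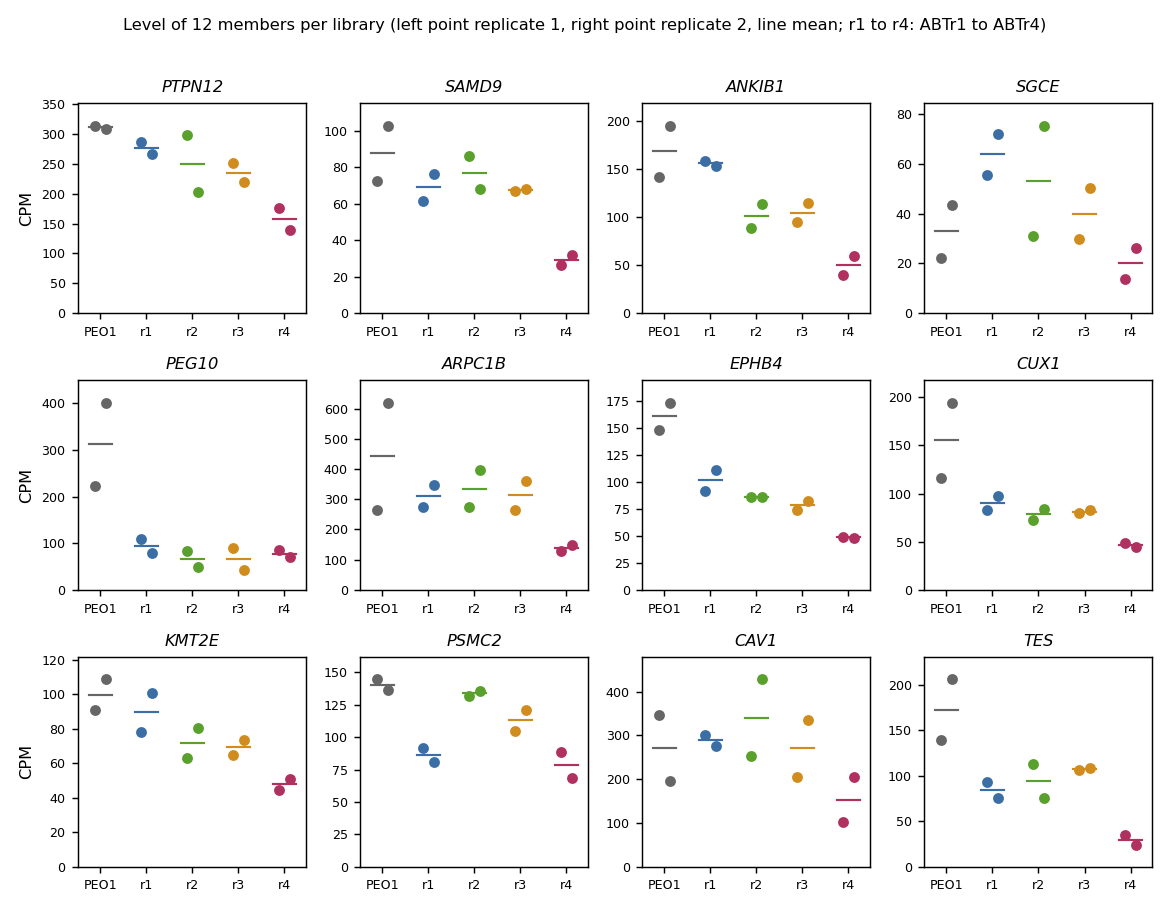
CPM of 12 members in each library, replicate 1 left and replicate 2 right, with a line at the mean of the group; r1 to r4 stand for ABTr1 to ABTr4. SAMD9, ANKIB1, ARPC1B, EPHB4, CUX1, KMT2E, PTPN12 and TES are lowest in both ABTr4 libraries, CAV1, SGCE and PSMC2 overlap another group, and PEG10 in ABTr4 lies within the other clones.

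Among members with at least 5 CPM in the other clones or in ABTr4, the 8 lowest in ABTr4 against the other clones were NRCAM, MAGI2-AS3, FOXP2, TES, CCDC71L, PDK4, SEMA3A and PPP1R9A, from -2.89 to -1.405 on the log2 scale. NRCAM, a neural cell adhesion molecule, was at 2.26 and 2.44 CPM in parental cells, 25.7 and 34.2 in ABTr1, 15.8 and 28.7 in ABTr2, 7.54 and 18.1 in ABTr3, and 1.4 and 4.13 in ABTr4. It was low in parental cells too, so ABTr4 stood near the parental level and the other clones above it. MAGI2-AS3, an antisense RNA whose exons overlap MAGI2 so that their reads cannot be told apart, had 6.12 and 6.00 CPM in parental cells, 20.3 and 21.3 in ABTr1, 15.5 and 13.6 in ABTr2, 18.8 and 14.6 in ABTr3, and 3.49 and 4.25 in ABTr4. FOXP2, a forkhead transcription factor, stood at 0.198 and 3.40 CPM in parental cells, 6.17 and 7.91 in ABTr1, 2.93 and 4.83 in ABTr2, 3.04 and 5.32 in ABTr3, and 1.16 and 1.26 in ABTr4, with parental replicates on either side of ABTr4. CCDC71L, a gene of little known function, was at 94.0 and 194 CPM in parental cells, 33.0 and 54.7 in ABTr1, 114 and 55.2 in ABTr2, 57.3 and 66.6 in ABTr3, and 15.7 and 26.4 in ABTr4, and PPP1R9A (neurabin), a scaffold of protein phosphatase PP1, was at 29.1 and 55.3 CPM in parental cells, 28.9 and 34.7 in ABTr1, 15.5 and 19.2 in ABTr2, 24.6 and 20.6 in ABTr3, and 7.29 and 10.2 in ABTr4. Those last 2 were below all 8 other libraries. Among the highest were ORC5, PEG10, DTX2 and SEMA3E, from 0.54 to -0.02. DTX2, a ubiquitin ligase of Notch signaling near the start of the window, had 7.83 and 11.1 CPM in ABTr4 against 9.18 ± 0.936 CPM (SD, n = 3 clones), and SEMA3E had 6.37 and 2.89 against 5.12 ± 2.72 CPM.

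The clones ABTr1, ABTr2 and ABTr3 were compared with parental cells in the same fit, a contrast without ABTr4 that shares its libraries with both comparisons behind the choice of window. Their members had a median log2 difference of -0.22, with 148 of 227 below 0 (background 48.7%), beside a median of 0.02 over all tested genes. The edgeR test called 21 members lower (9.25%, background 7.39%) and 10 higher (4.41%, background 6.54%), and both shares lay near the background. With the block 47 were lower (background 17.0%) and 23 higher (background 15.5%). Scaled by library totals alone, the median of all genes moved to 0.25 and that of the members to 0.01, so the distance between these medians hardly changed. Without PEO1 replicate 2 the counts were 3 lower and 3 higher (backgrounds 2.69% and 1.89%), and without PEO1 replicate 1 they were 23 and 4 (6.60% and 4.28%). Leaving out 1 library of another group gave 10 to 18 lower (backgrounds 4.59% to 6.77%) and 6 to 10 higher (3.59% to 5.75%). In single clones 10 members were lower and 10 higher in ABTr1 (backgrounds 4.29% and 5.48%), 5 and 5 in ABTr2 (2.81% and 3.31%), and 9 and 6 in ABTr3 (3.89% and 3.48%). No member differed among ABTr1, ABTr2 and ABTr3 by the edgeR test with 2 contrasts (0 of 16490 genes, 0%). At an unadjusted p under 0.05, 5 members differed (background 4.95%), with the block 0 members did (background 0.431%), and DESeq2 and limma-voom also called 0 members.

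The 6 members with the smallest adjusted p among those that fell in the other clones were UPK3B, BAIAP2L1, CDK14, PEG10, TFPI2 and UPK3BL. UPK3B, a uroplakin of urothelial and mesothelial surfaces, was at 11.1 and 20.6 CPM in parental cells, 2.21 and 2.55 in ABTr1, 0.963 and 1.88 in ABTr2, 1.21 and 0.827 in ABTr3, and 0.645 and 0.893 in ABTr4, a log2 difference of -3.39 (SE 0.35, edgeR adjusted p = 0.001). Its paralog UPK3BL, at 1.07 and 2.55 CPM in parental cells with exons that overlap POLR2J2, had a log2 difference of -3.09 (SE 0.54, edgeR adjusted p = 0.0079), and how reads shared by such similar genes were counted is not given in the sources used here. BAIAP2L1, which bends membranes and binds actin, had 98.8 and 139 CPM in parental cells, 49.6 and 46.1 in ABTr1, 31.9 and 44.1 in ABTr2, 25.9 and 30.4 in ABTr3, and 13.5 and 21.4 in ABTr4, a log2 difference of -1.68 (SE 0.23, edgeR adjusted p = 0.003). It fell in the other clones and stood lower still in ABTr4, and its exons overlap BRI3. CDK14, a cyclin Y dependent kinase of Wnt signaling, was at 37.4 and 66.5 CPM in parental cells, 17.5 and 10.5 in ABTr1, 12.5 and 7.39 in ABTr2, 12.9 and 10.9 in ABTr3, and 7.85 and 6.37 in ABTr4, a log2 difference of -2.13 (SE 0.30, edgeR adjusted p = 0.0031). PEG10 had a log2 difference of -2.07 (SE 0.33, edgeR adjusted p = 0.0052), and TFPI2 a log2 difference of -3.43 (SE 0.55, edgeR adjusted p = 0.0055). Without PEO1 replicate 2 the log2 differences of PEG10, TFPI2 and UPK3BL were -1.60, -1.24 and -2.35 and none passed (edgeR adjusted p of 0.062, 0.072 and 0.10). UPK3B, BAIAP2L1 and CDK14 passed in all 16 alternatives run for them. EPHB4 also fell, with a log2 difference of -0.87 (SE 0.17, edgeR adjusted p = 0.012), and missed the threshold without PEO1 replicate 2 (edgeR adjusted p = 0.098). CUX1 and TES fell by 0.90 and 0.86 on the log2 scale (edgeR adjusted p of 0.026 and 0.049), and passed in 10 and 5 of 16 alternatives.

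Rises in the other clones were led by MAGI2-AS3, PIK3CG, NRCAM, SEMA3A, ASB4 and LOC102724094. MAGI2-AS3 had a log2 difference of 1.501 (SE 0.24, edgeR adjusted p = 0.0053) and passed in all 16 alternatives. NRCAM had a log2 difference of 3.12 (SE 0.57, edgeR adjusted p = 0.0098) and SEMA3A a log2 difference of 3.53 (SE 0.66, edgeR adjusted p = 0.01). The NRCAM call ended without either parental library (edgeR adjusted p of 0.055 and 0.076), and the SEMA3A call without PEO1 replicate 2 (edgeR adjusted p = 0.093). PIK3CG, the catalytic gamma subunit of a phosphoinositide kinase of white blood cells, had 2 reads in parental cells and 281 in the 6 libraries, which is 40.5 times the parental level (95% interval from counting error 11.1 to 336), with an edgeR adjusted p of 0.0055. ABTr4 had 94 reads of PIK3CG, at 1.51 and 0.739 CPM, inside the range of the other clones. ASB4, of the imprinted cluster, had 2 parental reads against 139, which is 20.02 times (interval 5.44 to 167). LOC102724094, whose exons overlap MUC12, had 1 against 92, which is 26.5 times (interval 4.64 to 1058). Both were called by edgeR (adjusted p of 0.013 and 0.021) and lost the call without either parental library, and LOC102724094 also without ABTr1 replicate 2. 

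Partners of members that are encoded elsewhere in the genome were set beside them. Of 44 tested partner genes, edgeR called 0 lower in ABTr4 against the other clones (background 0%) and 0 against parental cells (background 5.25%), with 2 and 2 lower at an unadjusted p under 0.05 (backgrounds 3.68% and 12.8%). DESeq2 and limma-voom also called 0 in both, and edgeR with the block called 1 (PSMC3) lower than parental. The 7 other ARP2/3 genes had a median log2 difference from the other clones of -0.10, against -1.01 and -1.21 for ARPC1A and ARPC1B. ARPC2, a core subunit on another chromosome, was at 298 and 368 CPM in parental cells, 378 and 347 in ABTr1, 404 and 468 in ABTr2, 297 and 375 in ABTr3, and 347 and 342 in ABTr4, with ABTr4 inside the range of the others. For PSMC2, at -0.47, the 5 other ATPases of the proteasome base had a median of 0.12, and 0 of the 5 were below 0 against the other clones but all 5 against parental cells (median -0.52). For COPS6, at -0.38, the 8 other signalosome genes had a median of 0.26. For COG5, a Golgi tethering subunit at -0.77, the 7 other COG genes had one of -0.04. For CDK6, at -0.42, 5 tested genes of the D cyclin and CDK4 group had one of 0.18, with CDK4 at 0.27, CCND1 at 0.22 and CCND3 at 0.18. The other 2 of this group, RB1, which holds back entry into the cell cycle, at -0.61 and CDKN2C, an inhibitor of CDK4 and CDK6, at -1.01, were below all 6 libraries of the other clones in ABTr4. Of the 44 partners, 1 COG gene was so too and no other was (background 5.26% of all tested genes), and nothing is read from this. For CAV1 and CAV2, at -0.96 and -1.28, the 5 tested cavin and caveola genes had a median of -0.42, all below 0. PTRF, which encodes cavin 1, was at -0.10. Against parental cells the order was reversed: only 1 of these 5 was below 0, and their median was 0.72. The edgeR test called 1 of them higher than parental (background 4.46%). Against the other clones the ORC and DDK partners had a median of 0.34, beside 0.54 for ORC5 and -0.36 for DBF4.

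The genes set aside lay in the same window. Of 13 tested, MET, the receptor for hepatocyte growth factor, was at 642 and 671 CPM in parental cells, 467 and 469 in ABTr1, 487 and 431 in ABTr2, 368 and 379.8 in ABTr3, and 330.0 and 221 in ABTr4, and SHFM1, MCM7, NAMPT and LAMB1 had log2 differences of ABTr4 from the other clones of -0.77, -0.35, -0.69 and -0.57. ABCB1, the drug efflux pump, had 0 reads in ABTr4 against 264 in the other clones, which puts ABTr4 at least 30.3-fold lower when its 0 reads are taken as 3 over the group. The gene was low in every group. Parental cells had 18 reads (0.198 and 0.387 CPM), against which ABTr4 was at least 7.16-fold lower. The other clones, at a mean of 1.10 CPM, stood above parental cells.

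The 89 members that did not pass the filter were not compared. They include 17 of the 19 microRNA rows, the liver enzyme gene CYP3A4, the fatty acid receptor gene CD36, and HGF, the ligand of MET, which had 0 reads in all 10 libraries.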

How the data were processed

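RNA of PEO1 cells and 4 clones was sequenced from unstranded TruSeq v2 libraries, 2 per group. The counts are whole reads per gene, made by the authors before they deposited the table. Per the submitters' processing notes they used TopHat2 2.0.14, featureCounts 1.4.6 of Subread and hg19; whether strand was used, and how multi-mapped and overlapping reads were counted, is not given in the sources used here. Total counts of 20640602 to 55488566 per library set the precision, and no table column lacked a sample.

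Genes were filtered with edgeR's filterByExpr (16490 of 25370 passed), scaled with TMM factors and fitted for all 5 groups with the quasi-likelihood test of edgeR 4.0.16 in R 4.3.3 (5 residual degrees of freedom, biological coefficient of variation 0.368), with p-values adjusted by Benjamini-Hochberg across the 16490 genes and called at 0.05. Levels are TMM-normalised CPM. Standard errors are those of the fit. ABTr4 was compared with the mean of the other clones and with parental cells, the other clones together and singly with parental cells, and ABTr1, ABTr2 and ABTr3 with each other. Deviations of same-numbered libraries from their group means correlated at 0.28 to 0.731 in all 10 pairs of groups, over the limit of 0.1, so a fit blocked on replicate number (4 residual degrees, coefficient of variation 0.235) stands beside results it moves; the labels do not say what a number stands for. Alternatives were DESeq2 1.42.0, limma-voom (limma 3.58.1), no filter on genes with at least 1 count, library totals alone, only the compared groups, and each library left out; members without exon overlap and a finer split of the long arm were added after the data were seen.

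The members, gene lists and tests were chosen with earlier results of these data known. Genes named are the 3 with the highest mean CPM of each list, the 8 lowest and 5 highest in ABTr4 against the other clones with at least 5 CPM in either, the 3 nearest inside and outside each end, 13 fixed names, the 6 with the smallest adjusted p in each direction for the other clones against parental cells, and 6 of the genes set aside; TRIM56, DOCK4, CASD1 and ARPC1A come from their lists in addition, and the other genes singled out were chosen after their values were seen. A gene that this rule names is not reported here. Of the members, 95 share exon positions with another gene, and 22 share a whole exon, so their reads may be split or doubled. Intervals cover counting error only. The fit was tested on simulated data for the other clones against parental cells, where it recovered 2%, 8%, 82% and 98% of changes of 1.5-, 2-, 4- and 8-fold with 1 false call among 96 in 16247 genes. The simulated libraries lacked the deviation that real libraries of the same number share, so these rates need not hold for the real counts. Tables and figures used Python 3.11.15, pandas 2.3.3 and matplotlib 3.10.9.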

Additional observations from a re-analysis of the deposited data

Results flagged for a closer look

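For SEMA3C and MAGI2-AS3 both ABTr4 libraries lay below both parental libraries, while all 6 libraries of ABTr1, ABTr2 and ABTr3 lay above them. The log2 differences from parental cells were -0.21 (SE 0.30) in ABTr4 and 0.77 in the other clones for SEMA3C, and -0.65 (SE 0.27) and 1.501 for MAGI2-AS3. For SEMA3C the ABTr4 difference was smaller than its SE and ran from -0.35 to 0.03 over the alternatives, so its direction is not settled. For MAGI2-AS3 it ran from -0.79 to -0.41. The opposite direction was not tested beyond the non-overlap of libraries in TMM-normalised CPM, and the comparisons share the parental libraries. Among the 227 tested members 2 showed it, beside 17 of 16490 tested genes (0.103%), and 0 members showed the reverse order. In the other clones against parental cells MAGI2-AS3 passed the edgeR test, and SEMA3C had an edgeR adjusted p of 0.08.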

How the results depend on the processing

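The median of the members in ABTr4 stayed below 0 in all alternatives run: -0.73 to -0.60 against the other clones and -0.88 to -0.75 against parental cells with 1 library left out, and against parental cells -0.73 with no filter and -0.60 with library totals alone. In contrasts with parental cells that scaling moved all genes together, with a median over all genes of 0.21 to 0.30 in place of 0.01 to 0.06. The members' medians in the other clones were then 0.011 together and 0.043, 0.031 and 0.049 in ABTr1, ABTr2 and ABTr3, above 0 but below the all-gene medians of 0.25, 0.30, 0.21 and 0.28.

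Counts of calls moved more than medians, and so did the shares of all genes called, given in brackets. With the replicate block 26 members (0.509%) were lower in ABTr4 against the other clones, 111 (13.9%) against parental cells, 47 (17.0%) lower and 23 (15.5%) higher in the other clones, and 65 (30.1%), 48 (22.1%) and 46 (22.6%) differed in ABTr1, ABTr2 and ABTr3. DESeq2 gave 28 (0.867%), 83 (9.47%), 34 (11.1%), 19 (11.8%), 44 (19.3%), 32 (15.1%) and 29 (15.3%) in that order. Only the compared groups gave 10 (1.83%) lower for ABTr4 against parental cells and 7 (4.48%), 0 (0.498%) and 6 (4.18%) for the single clones, and library totals alone gave 9 (4.88%) lower in the other clones. With 1 library left out the counts ran from 9 to 54 (1.21% to 5.58%) for ABTr4 against parental cells, 3 to 23 (2.69% to 6.77%) lower and 3 to 10 (1.89% to 5.75%) higher for the other clones, 1 to 19 (1.29% to 9.10%) for ABTr1, 2 to 11 (1.47% to 6.02%) for ABTr2 and 0 to 18 (0.474% to 7.36%) for ABTr3. Partners lower than parental numbered 1 (13.9%) with the block.

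With 1 library left out the medians ran from -0.27 to -0.13 in the other clones, -0.36 to -0.14 in ABTr1, -0.26 to -0.094 in ABTr2 and -0.20 to -0.10 in ABTr3. For ABTr2 the block, no filter and only the compared groups each gave -0.17; for ABTr3 these gave -0.16, -0.14 and -0.19, DESeq2 -0.205 and limma-voom -0.16. Along the chromosome, the first stretch was at -0.87 over genes of at least 5 CPM and -0.62 in replicate 2 of the paired comparison, the second at -0.88 in replicate 1, and the long arm after the window at 0.11 with DESeq2 size factors, 0.16 over genes of at least 5 CPM and 0.12 in replicate 1. Where a group kept 1 library, it was assumed to vary like the others. The cause of these moves was not tested. On simulated counts, differences of 2-fold or less were mostly beyond the reach of single-gene calls at 2 libraries a group. On the real counts of ABTr4 against the other clones, the edgeR fit without the block left larger differences uncalled too.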

Other observations

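Genes beyond the end of the window were set beside the members, with boundaries chosen after the profile was seen. From the end of the window to position 124904345, 19 of 20 tested genes were below 0 in ABTr4 against the other clones (median -0.76). WASL, an activator of ARP2/3, was at -1.01, NDUFA5, a subunit of respiratory complex I, at -0.73, and POT1, a telomere-binding protein, at -0.52. From ZNF800 (start 127010354) to CNTNAP2 the median of 120 genes was 0.05. From CUL1 (start 148395933) to position 155759037, 10 of 62 genes were below 0 and the median was 0.49 against the other clones and 0.33 against parental cells. This group holds EZH2, the methyltransferase of Polycomb, at 0.92 and 0.16, and the GTPase RHEB at 0.37 and 0.34. From LINC01006 (start 156264793) to the end the median of 15 genes was -0.10.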
